A study of Mus musculus with 21 samples.

Results

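The 9 genes Nodal, Gdf3, Inhba, Inhbb, Tdgf1, Lefty1, Lefty2, Cer1 and Skil encode ligands, a co-receptor and inhibitors of Nodal and activin signalling, and were taken by name from a table of 24458 genes. The table gives FPKM, a level per length of transcript that is scaled to the fragments mapped in each library, in 12 RNA sequencing libraries of embryoid bodies. These are aggregates in which mouse embryonic stem cells differentiate, here formed in hanging drops. The groups were Cxxc5 knockout and wild type embryoid bodies at day 0, day 3 and day 6, with 2 libraries in each of the 6 groups. Cxxc5, named Rinf in the labels, codes for a zinc finger protein of the CXXC type, which recognises CpG that is not methylated. All lines were V6.5 cells of mixed 129/C57BL/6 background with no other allele or agent named. The labels give 2 independent lines for each genotype, but the titles of the embryoid body libraries give only genotype, replicate number and day. Whether the replicates of a group are these lines, and whether the same lines were followed over the days, is therefore not shown. The main tests took the 12 libraries as independent, so their p-values do not allow for repeated use of a line.

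Nodal and activins are secreted dimers of the TGF-beta family that bind type II and type I serine/threonine kinase receptors and lead to phosphorylation of Smad2 and Smad3, which act in the nucleus with Smad4 and partners such as Foxh1. Nodal needs the membrane-bound co-receptor Tdgf1 (Cripto), and it induces its own inhibitors Lefty1 and Lefty2, a feedback loop known from the early embryo. In the mouse embryo the pathway maintains the epiblast and patterns the primitive streak, from which mesoderm and definitive endoderm arise, while Cer1 and Lefty1 from the anterior visceral endoderm restrict Nodal to the posterior side.

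Cxxc5 itself was low in every knockout library. It had 6.87 and 8.64 FPKM in knockout at day 0, against 31.4 and 25.1 FPKM in wild type, and 9.38 and 11.9 FPKM in knockout at day 6, against 39.8 and 52.3 FPKM in wild type. The log2 difference was -1.74 (adjusted p = 0.0173) at day 0, -2.30 (adjusted p = 0.00412) at day 3 and -2.01 (adjusted p = 4.26e-04) at day 6, and at day 0 the adjusted p rose to between 0.0516 and 0.137 when any day 0 library was left out. With the 4 libraries of a day fitted alone, the adjusted p of Cxxc5 was 0.136, 0.0836 and 0.0671 at days 0, 3 and 6. In these fits only 8, 5 and 20 of the 12472 genes tested had an adjusted p under 0.05. Estimated depth was 14.9 to 32.4 M reads. Between replicates, log2 levels over the genes tested, which are not independent, correlated at 0.966 to 0.985 (Pearson), but 613 genes in knockout and 1070 in wild type differed by over 1.5-fold between the replicates at day 6, against 149 to 216 in the groups of days 0 and 3. Of the day 6 libraries, wild type replicate 1 stood apart. The 7 pluripotency markers summed to 468 and 192 FPKM in knockout, against 847 in wild type replicate 1 and 351 in wild type replicate 2. The 5 mesoderm markers summed to 270 and 427 FPKM in knockout, against 10.8 in wild type replicate 1 and 156 in wild type replicate 2. Day 6 calls of the 9 genes that change without that library are given both ways below.

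Of the 9 genes, 5 had a promoter in the RefSeq table of build GRCm38.p6, which gives the bases before the transcript start. These were Nodal, Inhba, Inhbb, Tdgf1 and Cer1. The 250 bases before the start are printed for 4 of them, 5′ to 3′ on the strand of the gene. Cer1 is shown because it had the greatest genotype difference at day 6 on the log2(FPKM + 1) scale used for the tests, and Inhba and Inhbb because they fell together as stem cells formed embryoid bodies. The stretch of Inhba precedes the start of its curated transcript, which lies 7595 bases inside the annotated gene, whose first start belongs to predicted transcripts. CpG dinucleotides, the bases that a CXXC domain recognises when unmethylated, are in capitals in these 3 sequences.
Cer1 (chr4:82885152-82885401, minus strand): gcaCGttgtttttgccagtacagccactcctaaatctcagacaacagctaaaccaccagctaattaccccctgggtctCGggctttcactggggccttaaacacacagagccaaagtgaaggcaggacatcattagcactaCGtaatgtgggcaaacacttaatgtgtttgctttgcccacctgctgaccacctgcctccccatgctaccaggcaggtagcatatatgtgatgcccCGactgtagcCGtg
Inhba (chr13:16011601-16011850, plus strand): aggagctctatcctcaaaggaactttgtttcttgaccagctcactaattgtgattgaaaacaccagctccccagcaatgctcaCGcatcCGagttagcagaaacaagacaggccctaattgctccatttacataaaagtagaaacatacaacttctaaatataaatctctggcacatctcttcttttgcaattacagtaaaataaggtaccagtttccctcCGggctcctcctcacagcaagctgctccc
Inhbb (chr1:119422249-119422498, minus strand): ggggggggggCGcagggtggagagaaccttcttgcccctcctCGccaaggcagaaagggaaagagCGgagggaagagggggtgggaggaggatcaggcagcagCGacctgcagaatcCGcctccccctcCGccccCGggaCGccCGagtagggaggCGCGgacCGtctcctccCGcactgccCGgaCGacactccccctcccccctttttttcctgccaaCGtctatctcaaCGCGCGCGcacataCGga
The Inhbb promoter held 21 CpG and lay above the upper quartile of 16 of all 32851 promoters in the table, whose median was 6 and whose lower quartile was 2. Cer1 held 5 CpG and Inhba 3, and Nodal held 3 and Tdgf1 held 7. Tdgf1, the co-receptor, is shown because its letters match TGTNNATT, a loose form of the Foxh1 core, searched on both strands and marked in capitals. Any base was allowed at the positions N, so a match need not be a sequence that Foxh1 binds.
Tdgf1 (chr9:110946159-110946408, minus strand): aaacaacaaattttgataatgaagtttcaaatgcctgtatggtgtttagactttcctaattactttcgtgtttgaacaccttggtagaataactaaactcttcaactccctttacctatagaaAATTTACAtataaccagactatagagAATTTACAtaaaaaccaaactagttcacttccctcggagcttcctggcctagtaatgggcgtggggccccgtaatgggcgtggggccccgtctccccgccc
Both matches lie on the opposite strand, as AATTTACA, and begin 127 and 101 bases before the start. The core was found in 10.9% of all promoters of this length and in none of the other 4 members, and a match is a description of letters, not of binding. The short Smad box CAGAC, on either strand, was present once each in Tdgf1 and Cer1 and in 42.2% of all promoters. A match to either motif can share bases with a CpG, and the AATTTACA matches in Tdgf1 hold none.

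**Figure D1:**
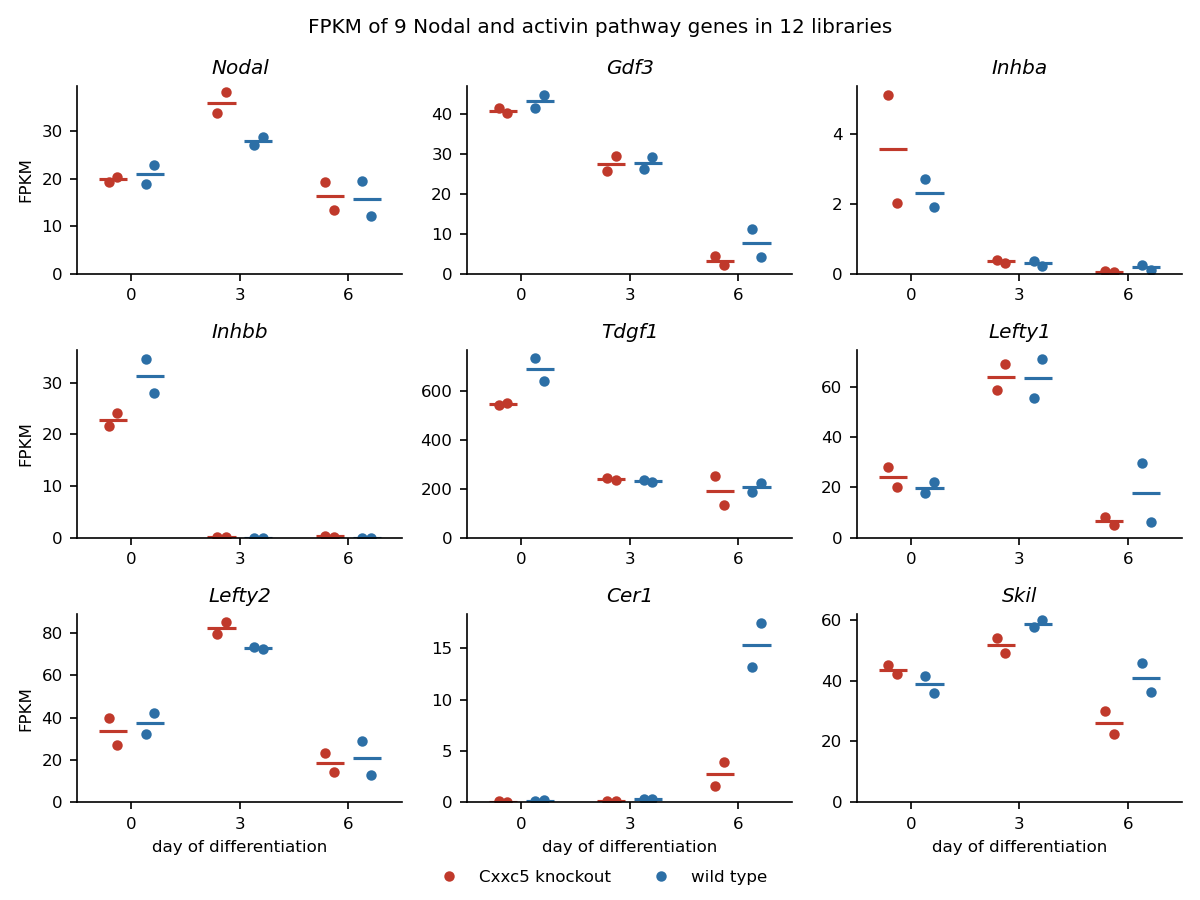
FPKM of the 9 genes in each of the 12 libraries, with 1 panel per gene, the day on the horizontal axis, knockout in red to the left of wild type in blue, with a point for each library and a short line at the mean of both. Inhbb stood between 21.5 and 34.5 FPKM at day 0 and under 1 FPKM afterwards in both genotypes, and Cer1 at day 6 was below 4 FPKM in both knockout libraries and above 13 FPKM in both wild type libraries.

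Nodal, the ligand that gives the pathway its name (chr10:61417972-61425338, build mm10), had its highest mean at day 3 in both genotypes. It had 19.3 and 20.4 FPKM in knockout at day 0, against 19.0 and 22.9 FPKM in wild type. At day 3 it had 33.8 and 38.3 FPKM in knockout, against 27.0 and 28.8 FPKM in wild type, and at day 6 19.3 and 13.5 FPKM in knockout, against 19.5 and 12.1 FPKM in wild type. The knockout libraries lay above both wild type libraries at day 3 only, and the log2 difference there was 0.35 ± 0.21 (SE), with an adjusted p of 0.479. Nodal rose between day 0 and day 3 in knockout by 0.83 on the log2 scale (adjusted p = 0.0113), while in wild type the difference was 0.40 (adjusted p = 0.143). The difference between these steps was 0.42 with an adjusted p of 0.826, so no difference between genotypes was shown. Without knockout day 0 replicate 1 or knockout day 3 replicate 2 the knockout step had an adjusted p of 0.0616 and 0.0719.

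Gdf3, a Nodal-related ligand that also antagonises BMPs and is known from pluripotent cells (chr6:122605403-122610087), had its highest values at day 0 and its lowest at day 6. It had 41.5 and 40.1 FPKM in knockout at day 0, against 41.4 and 44.8 FPKM in wild type, and at day 3 it had 25.6 and 29.5 FPKM in knockout, against 26.3 and 29.2 FPKM in wild type. At day 6 it had 4.42 and 2.12 FPKM in knockout, against 11.1 and 4.10 FPKM in wild type. The day 6 groups overlapped, since knockout replicate 1 was above wild type replicate 2, and the knockout mean was 43.1% of the wild type mean with a log2 difference of -0.93 ± 0.37 (SE, adjusted p = 0.0786). Leaving out wild type replicate 1 gave -0.31 (adjusted p = 0.446), leaving out wild type replicate 2 gave -1.56 (adjusted p = 0.00458) and leaving out knockout replicate 1 gave -1.33 (adjusted p = 0.0438). From day 3 to day 6 Gdf3 fell by 2.79 in knockout (adjusted p = 4.07e-04) and by 1.87 in wild type (adjusted p = 0.00690), both on the log2 scale. The difference between those steps was -0.92 with an adjusted p of 0.296. With single libraries left out it ran from -1.54, without wild type day 6 replicate 2, to -0.30.

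Inhba and Inhbb encode the beta A and beta B subunits, whose dimers are activin A and activin B, and both genes had their high values at day 0. Inhbb (chr1:119415463-119422248) had 21.5 and 24.1 FPKM in knockout at day 0, against 34.5 and 28.0 FPKM in wild type. The knockout libraries were below both wild type libraries, and the log2 difference was -0.43 ± 0.11 (SE, adjusted p = 0.138). At day 3 it had 0.138 and 0.157 FPKM in knockout, against 0.0436 and 0.0444 FPKM in wild type. At day 6 it had 0.309 and 0.256 FPKM in knockout, against 0.0427 and 0.0246 FPKM in wild type. The day 6 knockout values rested on an estimated 35.9 and 30.4 reads, against 4.63 and 2.83 reads in wild type. The ratio of means at day 6 was 8.38, whereas the log2(FPKM + 1) difference, which shrinks low values, was 0.31 ± 0.11 (SE, adjusted p = 0.0611). With a pseudocount of 0.1 it was 1.52 (adjusted p = 0.00171) and with 0.5 it was 0.55 (adjusted p = 0.0161), and with upper quartile scaling the adjusted p was 0.0444. Over the 14 alternatives the adjusted p reached 0.894, and with single day 6 libraries left out the difference was 0.28 to 0.34.

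Inhba (chr13:16004256-16031609) had 5.13 and 2.02 FPKM in knockout at day 0, against 2.71 and 1.91 FPKM in wild type. Knockout replicate 1 was the high library. The 6 markers of feeder fibroblasts, the cells on which the stem cells are grown, summed to 22.6 FPKM in that library, 9.25 in knockout replicate 2, and 9.45 and 12.3 in wild type, and their part in the Inhba value was not tested. Afterwards Inhba had 0.393 and 0.319 FPKM in knockout at day 3, against 0.377 and 0.233 FPKM in wild type, and 0.0747 and 0.0420 FPKM in knockout at day 6, against 0.258 and 0.119 FPKM in wild type. The day 6 groups did not overlap, but the log2 difference was -0.16 with an adjusted p of 0.684. Inhba and Inhbb reached the minimum level of the test through the day 0 libraries, where they were high, which favours a fall from day 0. Between day 0 and day 3 Inhba fell by 1.67 in knockout (adjusted p = 0.00152) and by 1.34 in wild type (adjusted p = 0.00434). Inhbb fell by 4.37 in knockout (adjusted p = 1.49e-07) and by 4.94 in wild type (adjusted p = 6.48e-08). For Inhbb the difference between these steps was 0.57 with an adjusted p of 0.439. Another annotated gene, B230303A05Rik, overlaps Inhba, and no source used here states whether the counting used strand.

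Tdgf1, the co-receptor (chr9:110939608-110946158), had the highest level per length of the 9 genes in every group. It had 543 and 552 FPKM in knockout at day 0, against 739 and 644 FPKM in wild type, and the groups did not overlap, with a log2 difference of -0.33 ± 0.24 (SE, adjusted p = 0.569). At day 3 it had 247 and 236 FPKM in knockout, against 235 and 227 FPKM in wild type, and at day 6 252 and 134 FPKM in knockout, against 189 and 227 FPKM in wild type. It fell between day 0 and day 3 by 1.18 in knockout (adjusted p = 0.00318) and by 1.57 in wild type (adjusted p = 6.05e-04) on the log2 scale. At day 6 the difference was -0.17 (adjusted p = 0.609). With single day 6 libraries left out its direction turned, from -0.62 without knockout replicate 1 to 0.29 without knockout replicate 2. Of the 75-base stretches of its longest transcript, 8.67% also occur in the pseudogene Tdgf1-ps1, so that part of its reads could have been assigned to either.

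Lefty1 and Lefty2, secreted antagonists that bind Nodal and its co-receptor, had their highest means at day 3, as Nodal did. Lefty1 (chr1:180935022-180938401) had 28.0 and 20.3 FPKM in knockout at day 0, against 17.7 and 22.1 FPKM in wild type, and 58.9 and 68.9 FPKM in knockout at day 3, against 55.5 and 71.2 FPKM in wild type. At day 6 it had 8.20 and 5.25 FPKM in knockout, against 29.6 and 6.43 FPKM in wild type. The groups overlapped, and the one value that stood apart was that of wild type replicate 1. The log2 difference at day 6 was -0.99 ± 0.54 (SE, adjusted p = 0.181). It was 0.029 (adjusted p = 0.958) without wild type replicate 1 and -2.01 (adjusted p = 0.00202) without wild type replicate 2, so the direction rests on that library. Lefty1 overlaps the annotated gene Gm39715, and 11.2% of the 75-base stretches of its longest transcript also occur in Lefty2.

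Lefty2 (chr1:180893108-180899107), the neighbour of Lefty1, had 39.6 and 27.2 FPKM in knockout at day 0, against 32.2 and 42.4 FPKM in wild type. At day 3 it had 79.7 and 85.2 FPKM in knockout, against 73.5 and 72.3 FPKM in wild type, and at day 6 23.3 and 14.1 FPKM in knockout, against 29.1 and 12.8 FPKM in wild type. The genotypes overlapped at days 0 and 6, and the day 3 difference was 0.17 on the log2 scale (adjusted p = 0.872). The ratio of Lefty2 to Lefty1 in FPKM was 2.84 and 2.69 in the day 6 knockout libraries, against 0.985 and 1.99 in the wild type libraries, a description without a test. Between day 0 and day 3 Lefty2 rose by 1.30 in knockout (adjusted p = 0.0147) and by 0.96 in wild type (adjusted p = 0.0471). For Lefty1 the difference was 1.38 in knockout (adjusted p = 0.0588), and in wild type it rose by 1.62 (adjusted p = 0.0309). The Lefty calls of this step depend on single libraries. In knockout the adjusted p of Lefty2 was 0.104 without day 0 replicate 2, and 0.0581 and 0.0717 without day 3 replicates 1 and 2. In wild type that of Lefty1 was 0.0763 to 0.136 and that of Lefty2 was 0.0738 to 0.207 when any library of days 0 and 3 was left out.

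On the log2(FPKM + 1) scale Cer1 had the greatest genotype difference of the 9 genes at day 6, while the ratio of means was greater for Inhbb, at values under 1 FPKM. Cer1 (chr4:82881751-82885151) encodes Cerberus, a secreted protein that binds Nodal and BMPs. At day 6 it had 1.60 and 3.91 FPKM in knockout, an estimated 76.1 and 189.9 reads, against 13.2 and 17.4 FPKM in wild type, an estimated 585 and 820.2 reads. The groups did not overlap, and the lower wild type library was far above the higher knockout library. The knockout mean was 18.0% of the wild type mean, and the log2 difference was -2.18 ± 0.26 (SE, adjusted p = 8.86e-04). It lay between -2.64 and -1.72 when any day 6 library was left out, with adjusted p-values of 4.68e-04 to 0.00412. When the 4 day 6 libraries were fitted alone, the adjusted p was 0.0973, in a fit where 20 of the 12472 genes tested passed. Cer1 passed the minimum level of the test only through the wild type day 6 libraries, and with no minimum level the adjusted p was 0.00166.

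Before day 6 Cer1 was close to 0. It had 0.0810 and 0 FPKM in knockout at day 0, against 0.0824 and 0.189 FPKM in wild type, and 0.0852 and 0.0899 FPKM in knockout at day 3, against 0.268 and 0.272 FPKM in wild type. These values rested on 0 to 14.1 reads per library. From day 3 to day 6 Cer1 rose by 1.72 in knockout (adjusted p = 7.89e-04) and by 3.67 in wild type (adjusted p = 4.52e-04) on the log2 scale. The rise in knockout was smaller, with an interaction of -1.96 ± 0.37 (SE, adjusted p = 0.0289). This call was lost with a pseudocount of 0.1, which gave -1.57 (adjusted p = 0.201), and after removal of GC content and length trends (adjusted p = 0.0544), and its adjusted p was 0.0864 to 0.112 without any day 3 library.

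Markers of endoderm, in which Cer1 is known to be made, were read beside it. The 5 definitive endoderm markers summed to 71.6 and 118 FPKM in knockout at day 6, against 41.1 and 95.8 FPKM in wild type. Of the 5, 0 passed the test, where 17.9% of all genes were higher and 16.2% lower. That count depended on single libraries, since calls in either direction appeared with certain day 6 libraries left out. Each of the 5 overlapped between the genotypes. The largest part of the sums was Cxcr4, with 45.4 and 64.5 FPKM in knockout, against 15.1 and 47.5 FPKM in wild type. Sox17, an endoderm transcription factor, had 10.1 and 21.0 FPKM in knockout, against 6.31 and 16.5 FPKM in wild type. Foxa2, a factor of endoderm and axial mesoderm, had 6.41 and 13.3 FPKM in knockout, against 12.3 and 18.2 FPKM in wild type. The 10 visceral endoderm markers summed to 71.7 and 110.5 FPKM in knockout, against 25.4 and 55.6 FPKM in wild type, with 2 of the 5 that were tested higher, Gata4 and Gata6, where 17.9% of all genes were higher. Of these 0 remained without wild type replicate 1, without knockout replicate 2, with the day 6 libraries alone or after removal of GC content and length trends, and 1 without knockout replicate 1. Gata4 had 36.4 and 51.2 FPKM in knockout at day 6, against 5.95 and 25.7 FPKM in wild type. Gata6 had 26.7 and 39.0 FPKM in knockout, against 6.45 and 20.5 FPKM in wild type. Apart from Gata4 and Gata6, each visceral endoderm marker overlapped between the genotypes at day 6, so the higher sum speaks for these genes and not for the list. Afp was at 0.0350 FPKM or less in all 12 libraries. The part of the endoderm markers in the Cer1 difference was not tested. In bulk samples fewer cells of a type and less RNA per cell cannot be told apart.

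Skil, also named SnoN, a nuclear repressor of Smad-driven transcription (chr3:31095058-31122923), was the other member that fell in knockout at day 6. It had 45.2 and 42.0 FPKM in knockout at day 0, against 41.6 and 35.9 FPKM in wild type, and 54.2 and 49.2 FPKM in knockout at day 3, against 57.7 and 59.9 FPKM in wild type. At day 6 it had 29.9 and 22.4 FPKM in knockout, against 45.7 and 36.1 FPKM in wild type, with both knockout libraries below both wild type libraries. The knockout mean was 64.0% of the wild type mean, and the log2 difference was -0.63 ± 0.15 (SE, adjusted p = 0.0133). The call was lost without wild type replicate 1, at -0.46 (adjusted p = 0.0794), and without knockout replicate 2, at -0.43 (adjusted p = 0.0867). With trends of GC content and length removed, an alternative chosen after the data were seen, it was -0.34 (adjusted p = 0.113), and with the day 6 libraries alone the adjusted p was 0.161. The order of the genotypes was the reverse at day 0, where the difference was 0.17 (adjusted p = 0.656). The step from day 3 to day 6 differed between genotypes by -0.45 with an adjusted p of 0.220.

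**Figure D2:**
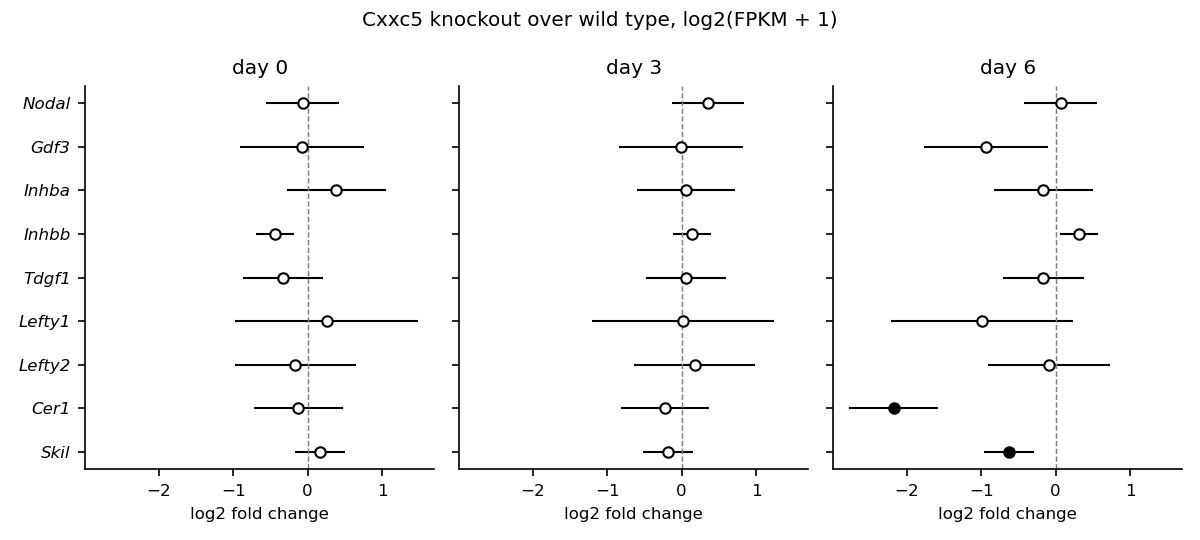
Log2 difference of FPKM + 1, knockout minus wild type, for the 9 genes at each day, with bars for the 95% confidence interval from limma and filled points for an adjusted p under 0.05. Only Cer1 at -2.18 and Skil at -0.63, both at day 6, are filled.

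Counted over the 9 genes, 0 passed the threshold of adjusted p under 0.05 between genotypes at day 0, where 0.369% of the 12472 genes tested did, and 0 at day 3, where 1.19% did. At day 6 the count was 2 of 9, both lower, in a comparison in which 34.1% of all genes passed and 16.2% were lower. By limma, 1829 genes at day 0 and 1847 at day 3 had an unadjusted p under 0.05. The median log2 difference of the 9 genes was -0.077 at day 0, 0.057 at day 3 and -0.17 at day 6, and over all genes it was -0.0022 at day 0, -0.0042 at day 3 and 0.021 at day 6. Knockout and wild type libraries were fully separate for 4 members at day 0, 6 at day 3 and 4 at day 6, against 49.8%, 60.3% and 63.6% of all genes at those days. These shares are near or below those of all genes. Over the 14 alternatives at day 6 the adjusted p ran from 4.68e-04 to 0.0973 for Cer1, from 0.00477 to 0.161 for Skil, from 0.00171 to 0.894 for Inhbb, from 0.00202 to 0.958 for Lefty1, from 0.00458 to 0.446 for Gdf3 and from 0.00970 to 0.958 for Tdgf1. Inhba and Inhbb reached the minimum mean of 1 FPKM, needed for a gene to be tested, through the day 0 libraries of both genotypes. Cer1 reached it through the day 6 wild type libraries, and the other 10 libraries averaged 0.658 FPKM, so its entry into the test depended on the group in which it was high and the count of 2 is no support for a change of the members together.

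**Figure D3:**
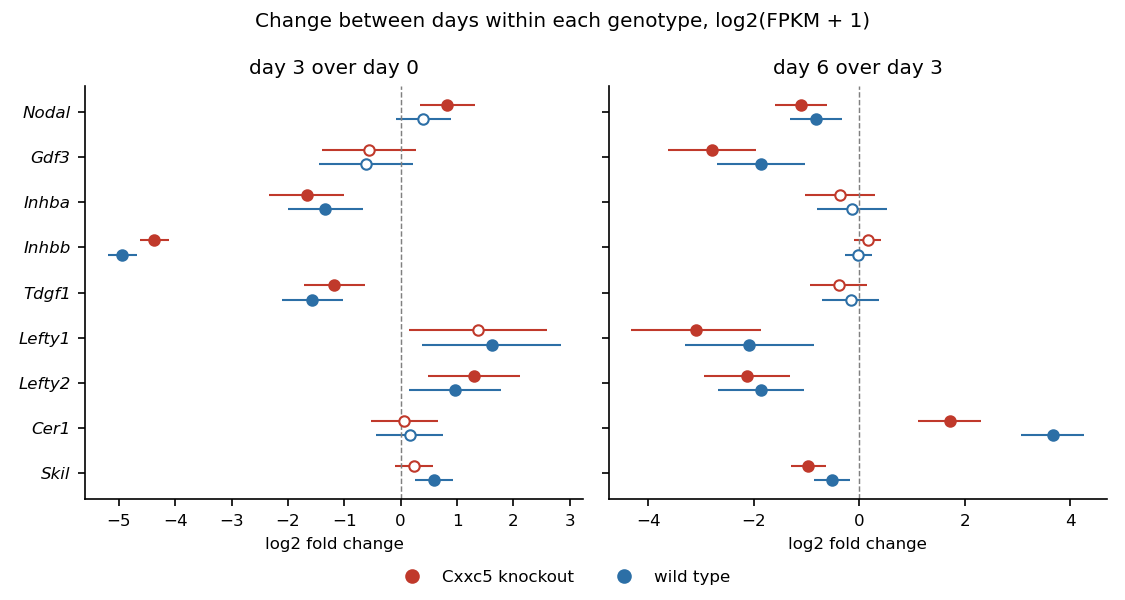
Log2 difference between consecutive days for the 9 genes, knockout in red above wild type in blue, with bars for the 95% confidence interval and filled points for an adjusted p under 0.05. Nodal, Lefty1, Lefty2, Gdf3 and Skil lie below 0 and Cer1 above 0 for day 6 against day 3 in both genotypes.

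The comparison of consecutive days asked how the 9 genes changed as the embryoid bodies developed. Between day 0 and day 3, 5 of 9 members passed in knockout, 2 of them higher and 3 lower, where 52.6% of all genes passed, 24.6% higher and 28.0% lower. In wild type 6 of 9 passed, 3 higher and 3 lower, where 55.7% of all genes did, 25.5% higher and 30.2% lower. The lower members were Inhba, Inhbb and Tdgf1 in both genotypes. Inhba and Inhbb reached the minimum level of the test through day 0, where they were high. The counts of this step are therefore no support for a change of the members together. For Skil the difference was 0.24 in knockout (adjusted p = 0.206), against 0.59 in wild type (adjusted p = 0.00844), where the adjusted p was 0.0601 without day 0 replicate 2. The genotype difference of that step passed for 0 of the 9 genes, where 0.0401% of all genes passed. By limma 956 genes had an unadjusted p under 0.05 for that difference.

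Between day 3 and day 6 the same 6 members passed in both genotypes, Cer1 higher and Nodal, Gdf3, Lefty1, Lefty2 and Skil lower, where 59.1% of all genes passed in knockout (29.2% higher, 29.9% lower) and 35.9% in wild type (17.4% higher, 18.4% lower). Lefty1 fell by 3.09 in knockout (adjusted p = 0.00145) and by 2.08 in wild type (adjusted p = 0.0189), and Lefty2 by 2.12 in knockout (adjusted p = 0.00126) and by 1.86 in wild type (adjusted p = 0.00663). Nodal fell by 1.11 in knockout (adjusted p = 0.00243) and by 0.82 in wild type (adjusted p = 0.0197), and Skil by 0.97 in knockout (adjusted p = 7.89e-04) and by 0.52 in wild type (adjusted p = 0.0259). The wild type calls of Nodal, Lefty1 and Skil were lost without either day 3 library, at adjusted p-values of 0.0627 to 0.115, and those of Nodal and Skil without day 6 replicate 2, at 0.120 and 0.171. The genotype difference of this step passed for 1 of 9 members, Cer1, where 4.51% of all genes passed and 3.21% had a negative value. For Lefty1 it was -1.01 (adjusted p = 0.426), and 0.010 without wild type day 6 replicate 1. Consecutive steps share the day 3 libraries, and Cer1 entered the test through the wild type day 6 libraries, where it was high.

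The order of the 9 genes by mean FPKM shifted with time. In both genotypes Tdgf1 led at each day. At day 3 the order was Tdgf1, Lefty2, Lefty1, Skil, Nodal and Gdf3 in knockout and in wild type alike, followed by Inhba, Inhbb and Cer1, all under 1 FPKM, of which Inhbb and Cer1 changed places between the genotypes. At day 6 Skil and Lefty2 came next to Tdgf1 in both genotypes. Cer1 at a mean of 2.76 FPKM lay in knockout just below Gdf3 at 3.27 FPKM, from which it did not differ beyond the spread of the replicates. In wild type Cer1 at 15.3 FPKM lay between Nodal at 15.8 FPKM, which overlapped with it, and Gdf3 at 7.60 FPKM, which did not.

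The closest matches to each member over the 12 libraries, by Pearson correlation of log2(FPKM + 1), were described without a test, since the libraries share days and genotypes. Nodal was most like Lefty2, at 0.962. Lefty2 itself was most like Oxct1, at 0.973, and Gldc, at 0.964. Lefty1 and Lefty2 correlated at 0.959, below the closest matches of both. Inhbb was most like Tet2, at 0.999, a gene for an enzyme that oxidises 5-methylcytosine. Inhba was most like Lox, at 0.993, an enzyme that crosslinks collagen and is known from fibroblasts, and next like Ptgs2, at 0.986. Gdf3 was most like Tuba4a and Zfp936, both at 0.996, and Cer1 like Samd3, at 0.986, and Ypel1, at 0.973. Tdgf1 matched Blvra at 0.979 and Smc3 at 0.977, Lefty1 matched Arhgap32 at 0.982 and Lgr4 at 0.979, and Skil matched Fgfr1op at 0.978 and Ublcp1 at 0.975.

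The rest of the pathway was read from 5 lists. At day 6, 5 of the 14 other inhibitors tested were higher in knockout, the direction opposite to Cer1 and Skil, and 0 were lower, where 17.9% of all genes were higher and 16.2% lower. These were Smad6, Smad7, Smurf1, Bambi and Drap1. Of them 3 remained without wild type replicate 1 (Bambi, Smad7 and Smurf1), 1 without knockout replicate 2 (Smad7), 3 with library weights (Bambi, Smad6 and Smad7), 2 after removal of GC content and length trends (Bambi and Smad7), and 0 when the day 6 libraries were fitted alone. Smad6, which blocks receptor-activated Smads, chiefly those of BMPs, had 18.6 and 32.8 FPKM in knockout, against 3.33 and 13.4 FPKM in wild type, a log2 difference of 1.70 (adjusted p = 0.0242). Bambi, a pseudoreceptor without kinase activity, had 9.37 and 13.6 FPKM in knockout, against 2.13 and 7.0 FPKM in wild type, a log2 difference of 1.30 (adjusted p = 0.0242). In both the lowest library was wild type replicate 1. Without it Smad6 gave 0.84 (adjusted p = 0.0664) and Bambi 0.62 (adjusted p = 0.0476), without wild type replicate 2 they gave 2.57 and 1.98, and without knockout replicate 2 Smad6 had an adjusted p of 0.157 and Bambi one of 0.148. Smurf1, a ubiquitin ligase that acts on Smads and receptors, had 7.87 and 7.80 FPKM in knockout at day 3, against 8.52 and 8.52 FPKM in wild type, and 11.1 and 12.3 FPKM in knockout at day 6, against 8.86 and 9.31 FPKM in wild type. Its genotype difference changed between those days by 0.44 (adjusted p = 0.0440), and with any of the day 3 libraries left out the adjusted p was 0.120 to 0.160. It was 0.103 without wild type day 6 replicate 1 and 0.116 without knockout day 6 replicate 2.

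Of 6 receptors tested, 2 were lower in knockout at day 6 and 0 higher, where 16.2% of all genes were lower and 17.9% higher. The count higher was 3 without wild type replicate 2 and 2 without knockout replicate 1. Tgfbr1, a type I receptor for TGF-beta, had 8.99 and 10.6 FPKM in knockout, against 16.1 and 15.3 FPKM in wild type, a log2 difference of -0.63 (adjusted p = 0.00151). Acvr2a, a type II receptor for activins and Nodal, had 5.59 and 6.60 FPKM in knockout, against 7.84 and 8.87 FPKM in wild type, a log2 difference of -0.40 (adjusted p = 0.0110). With trends of GC content and length removed, the Acvr2a difference was -0.046 (adjusted p = 0.727). Of 9 Smads and partners, Foxh1 was higher and Trim33 lower, shares of 1 in 9 each that are below those of all genes, and Smad2, Smad3 and Smad4 did not pass. The count higher was 2 without wild type replicate 2 or without knockout replicate 1. Trim33, a ubiquitin ligase and Smad partner, had 14.6 and 15.6 FPKM in knockout, against 26.7 and 22.1 FPKM in wild type, a log2 difference of -0.65 (adjusted p = 0.00154). Of 7 other ligands and processing enzymes, Furin and Tgfb1 were higher and 0 lower, against the same 17.9% and 16.2% of all genes. The count higher was 1 without wild type replicate 1, where the call of Furin was lost, 0 without knockout replicate 2, 3 without either of the others, 1 with library weights, 0 with the day 6 libraries alone and 1 after removal of GC content and length trends. Tgfb1 had 36.5 and 49.9 FPKM in knockout, against 7.83 and 25.5 FPKM in wild type, a log2 difference of 1.51 (adjusted p = 0.0219). Without wild type replicate 1 the Tgfb1 difference was 0.72 (adjusted p = 0.0272), without wild type replicate 2 it was 2.31, and without knockout replicate 2 its adjusted p was 0.133. The calls of Tgfbr1, Acvr2a and Trim33 were kept with any 1 of the day 6 libraries left out. They were lost when those libraries were fitted alone, with adjusted p-values of 0.0998, 0.164 and 0.102, in a fit where 20 of the 12472 genes tested passed.

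Of 13 target genes, 3 were higher in knockout at day 6 and 1 was lower, where 17.9% of all genes were higher and 16.2% lower. With library weights, or with the day 6 libraries alone, 0 were higher and 0 lower, after removal of GC content and length trends 0 were higher and 1 lower, and with no minimum level 1 was higher and 1 lower. With single libraries left out 0 to 7 were higher and 0 to 1 lower, with 2 higher and 0 lower without wild type replicate 1, 7 and 1 without wild type replicate 2, 1 and 1 without knockout replicate 1, and 0 and 1 without knockout replicate 2. Mixl1, a primitive streak factor, had 81.8 and 50.1 FPKM in knockout, against 14.9 and 43.7 FPKM in wild type, a log2 difference of 1.29 (adjusted p = 0.0390). Wnt3, a streak ligand, had 17.7 and 14.5 FPKM in knockout, against 3.20 and 11.1 FPKM in wild type, a log2 difference of 1.26 (adjusted p = 0.0351). Gsc was the third. Otx2, a factor of epiblast and anterior neural tissue, had 30.3 and 18.4 FPKM in knockout, against 64.7 and 38.0 FPKM in wild type, a log2 difference of -1.04 (adjusted p = 0.0227). Wild type replicate 1 held the lowest Mixl1 and Wnt3 and the highest Otx2. Without it Mixl1 gave 0.54 (adjusted p = 0.150), Otx2 -0.66 (adjusted p = 0.133) and Wnt3 0.49 (adjusted p = 0.0378), and without wild type replicate 2 Mixl1 gave 2.03 and Wnt3 2.02. Without knockout replicate 1 the adjusted p was 0.176 for Mixl1 and 0.123 for Wnt3, and without knockout replicate 2 it was 0.0624 for Mixl1, 0.101 for Wnt3 and 0.156 for Otx2. At day 0 none of the 49 tested genes of the 5 lists passed, and at day 3 only the repressor Tgif2 did, at 0.45 (adjusted p = 0.0350, and 0.129 to 0.381 without any day 3 library).

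**Figure D4:**
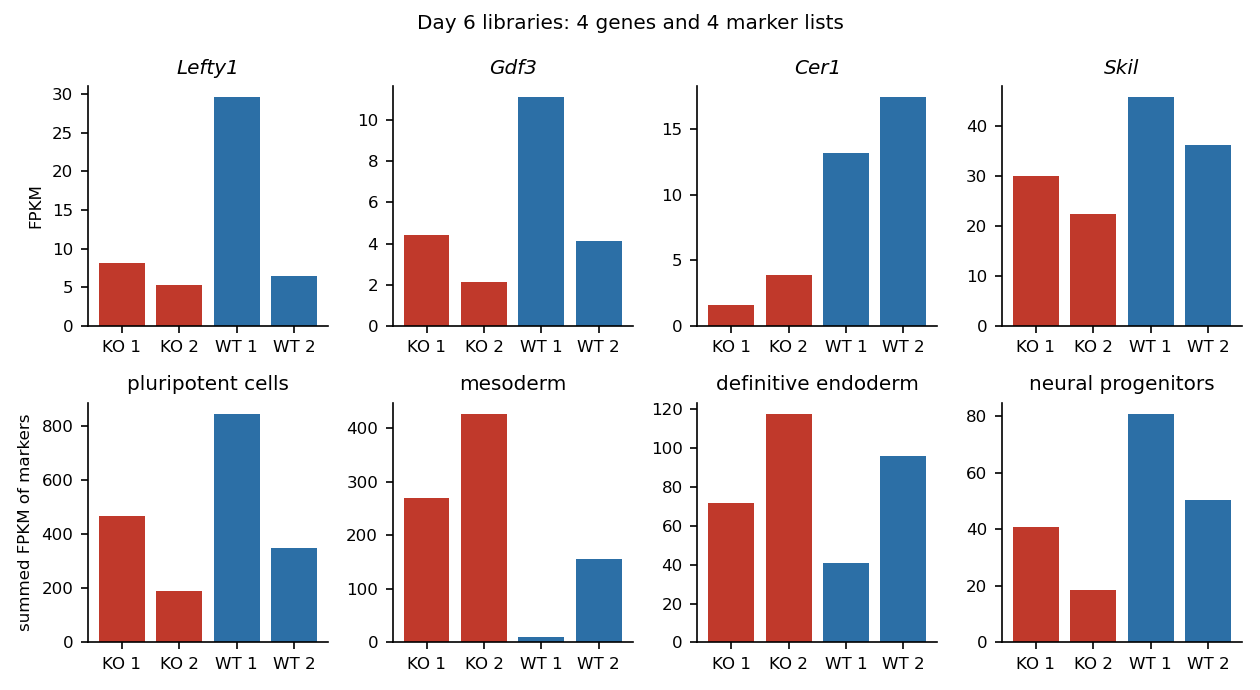
The 4 day 6 libraries, with FPKM of Lefty1, Gdf3, Cer1 and Skil in the top row and summed FPKM of marker genes in the bottom row. The marker lists are pluripotent cells, mesoderm, definitive endoderm and neural progenitors. Knockout is in red to the left of wild type in blue, with bars starting at 0. The mesoderm markers summed to 270 and 427 FPKM in knockout, against 10.8 and 156 in wild type.

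Markers of cell types were read beside these day 6 differences, in a comparison where 17.9% of all genes were higher and 16.2% lower. Of the primitive streak markers, T, Mixl1, Gsc and Wnt3 are also among the target genes above, and Eomes is among the Smads and partners. The streak calls of Gsc, Mixl1 and Wnt3 are thus the target gene calls counted again, and only that of Mesp1 is new. The 6 primitive streak markers, which include Mixl1 and Wnt3, summed to 385 and 256 FPKM in knockout, against 92.8 and 245 FPKM in wild type, and 4 of 6 were higher, 3 without wild type replicate 1, 6 without wild type replicate 2, 1 without knockout replicate 1 and 0 without knockout replicate 2. The mesoderm sum was higher in both knockout libraries, and 4 of its 5 markers passed, 1 without knockout replicate 1 and 0 without knockout replicate 2. The 5 neural progenitor markers summed to 40.9 and 18.5 FPKM in knockout, against 80.8 and 50.5 FPKM in wild type, with 4 of 5 lower, and 1 without wild type replicate 1 or without knockout replicate 2. The 7 pluripotency markers summed to 468 and 192 FPKM in knockout, against 847 and 351 FPKM in wild type, with 1 of 7 lower, Sox2, and 0 without wild type replicate 1 or knockout replicate 2, 6 without wild type replicate 2 and 4 without knockout replicate 1. With the day 6 libraries alone, 0 markers of these 4 lists passed, in a fit where 20 of the 12472 genes tested did. After removal of GC content and length trends 0 streak and 0 pluripotency markers passed, 2 mesoderm markers were higher and 2 neural progenitor markers lower, and with library weights 1 streak, 4 mesoderm, 2 neural progenitor and 0 pluripotency markers passed. With no minimum level these counts were 1, 2, 2 and 0. The part of cell composition in the differences of Cer1, Skil and the pathway genes was not tested.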

How the data were processed

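The values are FPKM in a deposited table of 24550 rows by 12 embryoid body libraries, in which 92 rows are ERCC spike-ins at 0, left out here. The labels' protocols describe single-end sequencing of total RNA. Trim Galore 0.4.1, TopHat2 2.0.13, Cufflinks 2.2.1 and HTSeq 0.6.1 are named in the submitters' processing notes with build mm10, without saying which made the table. A stem cell table was not used here, because its 6 pairs of condition and replicate, 3 for each condition, could not be matched to the 2 samples of each genotype.

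Genes with a mean of at least 1 FPKM were tested (12472, including all 9 members). On log2(FPKM + 1), limma 3.58.1, run in R 4.3.3, fitted 6 group means over 12 libraries, a variance trend, two-sided tests and Benjamini-Hochberg adjustment over all genes. That scale understates changes of low genes. Positive differences are higher in knockout or at the later day. The smallest p of an exact permutation test, two-sided, would be 0.333 in this design of 2 against 2. The procedure was checked on simulated data. Depth was estimated from the steps of 1 read among 1651 low genes, at which 1 FPKM in a 2 kb transcript rests on 29.9 to 64.7 reads. Counting error only is covered by such read numbers.

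The members and lists were chosen with earlier results of these data known. Named genes are all members, Cxxc5, pathway genes past the threshold (at most 5 in each direction by size) and the 2 genes most correlated with each member, and the other pathway genes that passed are named so that each count is complete. Positions come from RefSeq on mm10, transcripts for windows of 75 bases, GC content and length from GENCODE vM21. Alternatives were other pseudocounts, minimum levels and scalings, library weights, fits of the compared groups alone or without day 6, a replicate block, leaving out each library, and removal of GC content and length trends (available for 98.2% of genes). Replicate numbers did not pair the libraries, since the deviations of same-numbered libraries correlated at -0.0807 to 0.243.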

Additional observations from a re-analysis of the deposited data

Results flagged for a closer look

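Cer1 entered the test through the wild type day 6 libraries, where it was high. Its day 3 values rested on an estimated 4.02 and 5.06 reads in knockout, against 14.05 and 7.07 in wild type. Both knockout libraries lay below both wild type libraries at day 3 and day 6, where 60.3% and 63.6% of all genes were fully separate. The knockout difference of Cer1 changed between day 3 and day 6 by -1.96 on the log2(FPKM + 1) scale (limma, adjusted p = 0.0289). Over 18 alternatives its adjusted p lay between 0.00426 and 0.201. The knockout difference of Smurf1 changed between the same days by 0.44 (adjusted p = 0.0440), with both knockout libraries below wild type at day 3 and above it at day 6. Over 18 alternatives its adjusted p lay between 0.0217 and 0.160.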

How the results depend on the processing

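At day 6, 2 of 9 members passed between genotypes. The count was 0 with the day 6 libraries alone, where 20 of the 12472 genes tested passed in place of 4249. It was 1 after removal of GC content and length trends, where 2401 genes passed. With single libraries left out it fell without wild type replicate 1 or knockout replicate 2. It rose without wild type replicate 2 or knockout replicate 1. For day 3 against day 0, the 5 called in knockout became 8 with library weights, where 8796 of the 12472 genes tested passed in place of 6562. They also became 8 with the compared groups alone, where 8226 genes passed. With any single library of that step left out, fewer members were called in both genotypes. For day 6 against day 3 in wild type, the 6 called became 1 with the compared groups alone, where 16 genes passed in place of 4476. Fewer members were also called with some single libraries left out. The interaction of day 6 against day 3, with 1 member called, gave 0 with a pseudocount of 0.1, with the compared groups alone and after removal of GC content and length trends. In these fits 558, 213 and 146 genes passed, in place of 562. With single libraries left out the count of members moved in both directions. Day 0 and day 3 stayed at 0 of 9 in each alternative run.

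The directions that turned belong to differences that did not pass in the main analysis. Under quantile normalization these were Inhba at day 3 (-0.038), Cer1 for day 3 against day 0 in knockout (-0.032) and in wild type (-0.096), and Tdgf1 for day 6 against day 3 in wild type (0.0015). After removal of GC content and length trends they were Lefty1 at day 3 (-0.066), Nodal (-0.11) and Inhba (0.11) at day 6, and Inhbb for day 6 against day 3 in knockout (-0.22). With single libraries left out, Nodal ran from -0.20 to 0.061, Inhba from -0.12 to 0.90 and Lefty2 from -0.43 to 0.10 at day 0. At day 3 Gdf3 ran from -0.11 to 0.085, Inhba from -0.023 to 0.14 and Lefty1 from -0.16 to 0.20. At day 6 Nodal ran from -0.26 to 0.39, Tdgf1 from -0.62 to 0.29, Lefty1 from -2.01 to 0.029 and Lefty2 from -0.65 to 0.47. Tdgf1 in knockout ran from -0.84 to 0.066 for day 6 against day 3, and the Lefty1 interaction of that step from -2.03 to 0.010. In 4 of these ranges the lower end passed the threshold, namely Tdgf1 (adjusted p = 0.00970) and Lefty1 (0.00202) at day 6, Tdgf1 in knockout for day 6 against day 3 (0.00146) and the Lefty1 interaction (0.0131). The cause was not tested for any of these.

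The replicate block changed no member's call but that of Lefty2 in wild type for day 3 against day 0, at an adjusted p of 0.0552, and lost those of Tgif2 at day 3 (0.0561) and of the Smurf1 interaction (0.0588). It gave 20 genes in place of 46 at day 0, and the replicate numbers are not shown to pair the libraries. Over all genes the calls ranged from 8 to 360 around 46 at day 0, from 5 to 1397 around 149 at day 3, from 20 to 4868 around 4249 at day 6, from 16 to 5242 around 4476 for wild type day 6 against day 3, from 3 to 16 around 5 for the interaction of day 3 against day 0 and from 67 to 2159 around 562 for that of day 6 against day 3. Depth limits Cer1 before day 6 and Inhbb after day 0, and 2 libraries per group limit the rest.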
